A study of Mus musculus with 16 samples.

Results

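The 51 genes described here encode the secreted and membrane-bound proteases that cut the extracellular matrix, together with their relatives and inhibitors: 23 matrix metalloproteinases (Mmp), 19 ADAMTS enzymes (Adamts), 5 ADAMTS-like proteins (Adamtsl) and 4 tissue inhibitors of metalloproteinases (Timp). They were chosen by name, as every entry among 30385 whose symbol starts with one of these 4 stems and a digit, without use of any measured value. Expression was measured by sequencing of polyadenylated RNA in 2 immortalized mouse epicardial cell lines. The epicardium is the outer cell sheet of the heart, and both lines came from E11.5 hearts of a mixed C57BL/6 and SV129 background and carry a temperature-sensitive T antigen (Immorto). The wt line is Tgfbr3+/+:Immorto and the mt line is Tgfbr3-/-:Immorto. Cells were grown at 33 °C and studied at 37 °C, where the antigen is inactive. Each line received vehicle, 250 pM TGFB1, 250 pM TGFB2 or 5 nM BMP2 for 72 h at 200000 cells per well, with 2 libraries per group. There was 1 line per genotype, so genotype and line cannot be told apart.

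Matrix metalloproteinases are zinc-dependent endopeptidases that are made as inactive zymogens and either secreted or anchored in the cell membrane, where they cleave collagens, laminins and other matrix proteins. ADAMTS enzymes are secreted proteases with thrombospondin motifs that cut proteoglycans such as versican and aggrecan or trim procollagens, whereas ADAMTS-like proteins resemble them but lack the protease domain. TIMPs bind to the active site of these enzymes and block it. Epicardial cells that leave their sheet invade the matrix beneath, and TGF-beta ligands, which Tgfbr3 presents to the signalling receptors, are known to induce this in culture.

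Library depth ran from 6410320 to 31813921 reads. The unit of level is the TMM-scaled count per 1000000 reads (CPM), listed always for replicate 1 and then replicate 2. A gene was called changed at an adjusted p under 0.05 in edgeR's quasi-likelihood test, corrected over all 16835 genes tested, and effects are log2 fold changes ± SE with n = 2 libraries per group. The labels do not say whether the 2 libraries of a group came from separate cultures, and p-values then measure only the spread between these samples. Tgfbr3 itself read 71.0 and 100.3 CPM in wt vehicle and 14.6 and 18.2 CPM in mt vehicle. All 12 epicardial markers examined were detected in every library. Their summed level was 3447 to 4099 CPM with vehicle or BMP2 and 793 to 1471 CPM with a TGF-beta ligand. Wt1, Tbx18, Tcf21, Upk3b, Upk1b, Lrrn4, Krt19 and Gata5 were lower in every TGF-beta library than in both vehicle libraries of their line. Aldh1a2 was higher in each, at 17.0 and 20.4 CPM in wt vehicle against 24.0 to 56.5 CPM. Msln was higher in wt (419 and 364 against 426 to 532 CPM) and lower in mt. Krt8 and Krt18 overlapped in both lines. The 4 mt libraries of replicate 1 stood apart: they held 14.6 to 28.4 CPM of the cardiomyocyte myosin Myh6, against at most 0.44 CPM in every other library, so results of the mt line are also given without them. That fit leaves 1 library in each mt group and takes its spread from the wt groups. Calls lost in it can therefore not be assigned to the libraries left out. All 12 cardiomyocyte markers had reads in the 4 mt replicate 1 libraries, while 1 to 3 of the 12 had none in each of the others. The summed level of the list was 62.5 to 385 CPM with vehicle or BMP2 and 181 to 914 CPM with a TGF-beta ligand. Tnnt2 made up most of this sum, with 833 of 846 CPM in wt TGFB1 replicate 1. In the mt replicate 1 libraries Tnnt2 was at 67.4 to 167 CPM, beside sums of 131 to 280 CPM. The part of the list in the results was not tested.

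Of the 51 genes, 41 passed the low-count filter and were tested: 16 Mmp, 17 Adamts, 5 Adamtsl and 3 Timp genes. The other 10, Adamts13, Adamts19, Mmp1a, Mmp1b, Mmp7, Mmp12, Mmp20, Mmp21, Mmp27 and Timp4, had at most 76 reads over the 16 libraries and stayed at or below 0.579 CPM in each. Mmp7 and Mmp20 had no read at all. Because a gene can pass the filter through the group where it is high, the 41 are not a neutral sample of the family.

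A block of 10 Mmp genes lies side by side on chromosome 9, in the order Mmp13, Mmp12, Mmp1b, Mmp3, Mmp1a, Mmp10, Mmp8, Mmp27, Mmp20 and Mmp7. The promoters of Mmp13, Mmp3 and Mmp10, which are tested members of this block that behaved differently from one another, are printed below from RefSeq for build GRCm38.p6, plus strand, as the 250 bases before the start (chr9:7272264-7272513, chr9:7445572-7445821 and chr9:7502092-7502341). Capitals mark a match to TGANTCA, the core bound by AP-1, the Fos and Jun factor family; the letters read the same on both strands.
Mmp13: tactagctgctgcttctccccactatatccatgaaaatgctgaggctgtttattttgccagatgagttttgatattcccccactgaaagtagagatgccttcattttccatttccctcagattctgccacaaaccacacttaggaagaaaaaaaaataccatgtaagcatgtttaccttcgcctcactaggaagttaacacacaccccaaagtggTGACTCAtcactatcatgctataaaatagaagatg
Mmp3: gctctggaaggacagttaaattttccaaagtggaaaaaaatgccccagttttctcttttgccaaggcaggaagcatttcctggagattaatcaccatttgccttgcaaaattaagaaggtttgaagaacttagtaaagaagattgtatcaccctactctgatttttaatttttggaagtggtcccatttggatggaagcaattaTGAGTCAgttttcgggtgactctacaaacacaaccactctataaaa
Mmp10: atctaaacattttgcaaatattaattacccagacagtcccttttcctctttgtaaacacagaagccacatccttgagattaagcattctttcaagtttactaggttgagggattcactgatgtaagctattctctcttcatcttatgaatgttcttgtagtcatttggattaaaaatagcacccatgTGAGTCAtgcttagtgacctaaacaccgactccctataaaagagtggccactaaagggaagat
The match began 35 bases before the start of Mmp13, 46 before that of Mmp3 and 63 before that of Mmp10. Of the 36 members with a promoter window in RefSeq, 8 held the letters, and all 8 belong to the block of 10; Mmp8 and Mmp27 did not. Among all 32851 promoter windows, 6.75% held them. A match describes the letters in this window and does not show that a factor binds there.

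In vehicle, the mean level per kilobase of exon was higher for Timp1, Timp2 and Timp3 than for any protease of the families, while the inhibitor Timp4 was among the untested genes. The mean level in wt vehicle was 377 CPM per kb for Timp3, 322 for Timp1 and 274 for Timp2, followed by 105 for Mmp23, 77.7 for Mmp2 and 62.1 for Mmp14. The most abundant ADAMTS enzyme was Adamts5 at 21.2 CPM per kb. In mt vehicle Timp3 again led, at 668 CPM per kb, and Mmp2 at 206 stood above Mmp23 at 155. With TGFB1 in the wt line Mmp2 reached 561 CPM per kb beside Timp3 at 577, so that a protease and an inhibitor held the top of the order with a gap between them smaller than that between replicates.

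The change of proportion was visible in sums over each family. The summed Mmp level was 974 and 772 CPM in wt vehicle against 3770 and 2881 CPM with TGFB1 and 3610 and 2923 CPM with TGFB2. In the mt line it was 1585 and 1245 CPM in vehicle, 3384 and 2635 CPM with TGFB1 and 2838 and 3217 CPM with TGFB2. No library with a TGF-beta ligand overlapped a vehicle or BMP2 library of either line in this sum. Mmp2 and Mmp14 together made up 63.2% and 49.6% of the Mmp sum in wt vehicle and 88.2% and 81.0% of it with TGFB1. The summed Timp level was 3070 and 3099 CPM in wt vehicle and 3530 and 4266 CPM with TGFB1, whereas in the mt line it was 4396 and 4927 CPM in vehicle and 2485 and 3167 CPM with TGFB1. The ratio of summed Mmp to summed Timp CPM was therefore 0.317 and 0.249 in wt vehicle against 1.07 and 0.675 with TGFB1, and 0.361 and 0.253 in mt vehicle against 1.36 and 0.832 with TGFB1. These sums are descriptions, were not tested, and do not measure protein or activity; in bulk RNA, fewer cells of a type and less RNA per cell cannot be told apart.

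**Figure D1:**
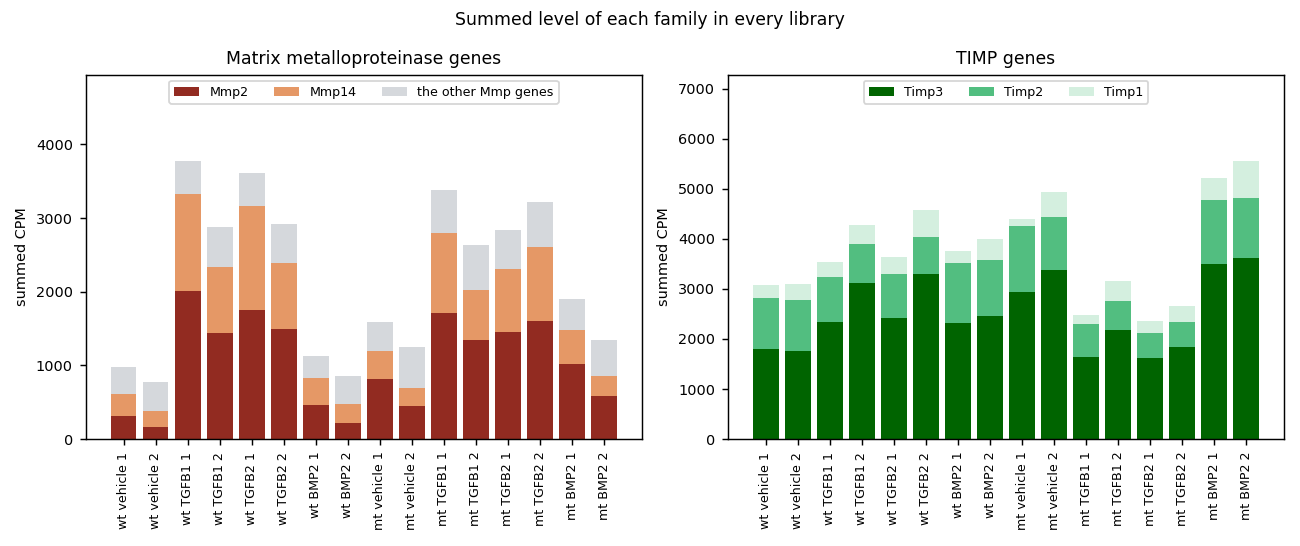
Summed CPM of the Mmp genes (left, split into Mmp2, Mmp14 and the others) and of Timp1, Timp2 and Timp3 (right) in each of the 16 libraries, 1 bar per library. The Mmp bars of all TGFB1 and TGFB2 libraries, 2635 to 3770 CPM, stand above all vehicle and BMP2 bars, 772 to 1903 CPM.

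In the wt line, TGFB1 raised 13 and lowered 4 of the 41 tested members, and TGFB2 raised 13 and lowered 5. The genes that rose were led by Mmp10, Mmp15, Adamtsl2 and Adamts15, and those that fell by Mmp17 and Adamtsl3. Called members made up 17 of 41 with TGFB1, where 19.0% of all genes were called (10.8% higher and 8.21% lower), and 18 of 41 with TGFB2, where 20.1% were (11.1% higher and 9.03% lower). The median log2 fold change over the members was 0.62 with either ligand, beside -0.011 and 0.016 over all genes. With the replicate number as a term in the test, 22 and 24 members were called, where the same test called 33.4% and 34.7% of all genes. The count with TGFB1 fell to 11 without wt TGFB1 replicate 1, to 10 without wt vehicle replicate 1 and to 9 without wt vehicle replicate 2, and the count with TGFB2 fell to 10 without wt TGFB2 replicate 1 and to 11 without wt vehicle replicate 1. The calls of Mmp2, Mmp10, Mmp15, Mmp17, Adamts5, Adamts15, Adamtsl2 and Adamtsl3 held whichever of the 4 libraries was left out, for 8 of 17 with TGFB1; with TGFB2 these and Mmp14 and Adamts16 did, for 10 of 18.

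In the mt line, TGFB1 raised 9 and lowered 11 members, and TGFB2 raised 8 and lowered 14. That is 20 of 41 members with TGFB1, where 16.4% of all genes were called (7.97% higher and 8.45% lower), and 22 of 41 with TGFB2, where 17.4% were (8.17% higher and 9.25% lower). The median member moved by 0.10 and -0.05, beside -0.008 and -0.014 over all genes. With the replicate term 28 and 31 members were called, where that test called 32.5% and 33.5% of all genes. Leaving out the 4 mt replicate 1 libraries keeps 1 library per mt group, so the spread of that fit comes from the wt groups alone. Without the 4 mt replicate 1 libraries, 10 members were called with each ligand, and every call kept its direction: Adamts5, Adamts14, Adamtsl2, Adamtsl3, Adamtsl4, Mmp10, Mmp15 and Mmp17 passed with both ligands, Adamts1 and Adamts3 with TGFB1 alone and Adamts15 and Mmp14 with TGFB2 alone. Leaving out mt TGFB1 replicate 2 or mt TGFB2 replicate 2 alone brought the count of its comparison to 13, and with only the compared groups in the fit 5 and 14 members were called. The calls held whichever of the 4 libraries was left out for 11 of 20 members with TGFB1 and 13 of 22 with TGFB2, among them Mmp9, Mmp10, Mmp15, Mmp17, Adamts1, Adamts5, Adamts14, Adamts16, Adamtsl2, Adamtsl3 and Adamtsl4 with both ligands. Within a line the TGFB1 and TGFB2 comparisons share their vehicle libraries and are not independent of each other. Across the 4 comparisons 7 members were called higher in all, 3 lower in all, and none rose in one and fell in another.

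**Figure D2:**
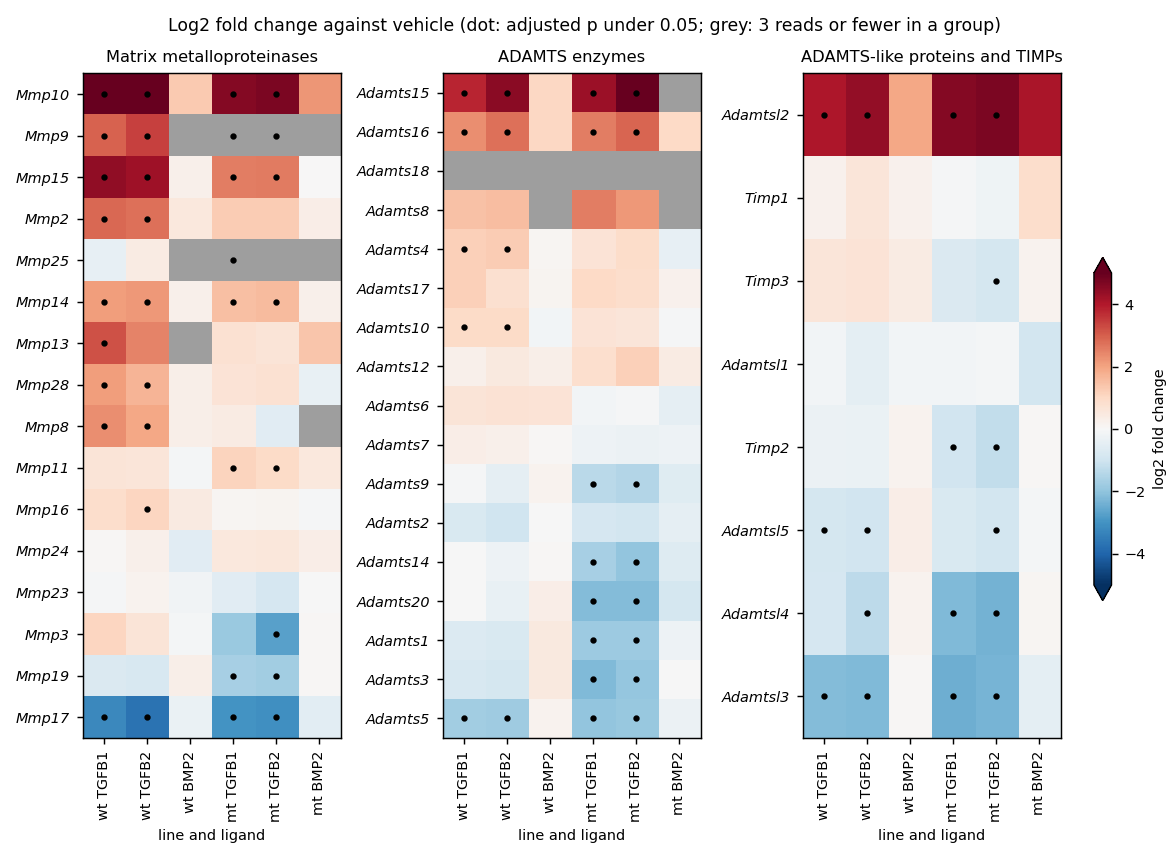
Log2 fold change against vehicle of the 41 tested members (one line per gene) for each line and ligand (columns); red is higher, blue is lower, a dot marks an adjusted p under 0.05 and grey a comparison with 3 reads or fewer in a group. The TGFB1 and TGFB2 columns carry 17 and 18 dots in wt and 20 and 22 in mt, and the BMP2 columns carry 0.

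Among the membrane-anchored enzymes, Mmp14 and Mmp15 rose and Mmp17 fell with both TGF-beta ligands in both lines. Mmp14, or MT1-MMP, a collagenase on the cell surface that also activates the Mmp2 zymogen, lies on chromosome 14 from 55050440 to 55060095 (mm9, as are all gene positions below). It read 304 and 216 CPM in wt vehicle, 1316 and 887 with TGFB1 and 1410 and 897 with TGFB2. Every TGF-beta library of the wt line stood above both vehicle libraries, with changes of 2.08 ± 0.40 (adjusted p = 0.00368) and 2.15 ± 0.40 (adjusted p = 0.00276) in edgeR's test; without wt vehicle replicate 2 the TGFB1 change was 1.85 and not called. In the mt line Mmp14 read 370 and 248 CPM in vehicle, 1090 and 672 with TGFB1 and 843 and 1003 with TGFB2, again without overlap. The mt changes were 1.51 ± 0.39 (edgeR adjusted p = 0.021) and 1.58 ± 0.39 (edgeR adjusted p = 0.0162), and the TGFB1 call was lost without the mt replicate 1 libraries (1.44, adjusted p = 0.12).

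Mmp15, or MT2-MMP, a second transmembrane collagen- and fibrin-degrading enzyme, lies on chromosome 8 from 97876236 to 97898193. It read 8.59 and 5.41 CPM in wt vehicle, 149 and 149 with TGFB1 and 144 and 120 with TGFB2. The 2 lines already differed in vehicle, since mt vehicle held 81.4 and 20.1 CPM, and all mt libraries with a TGF-beta ligand lay between 238 and 361 CPM. The wt changes were 4.42 ± 0.59 (edgeR adjusted p = 0.000445) and 4.24 ± 0.59 (edgeR adjusted p = 0.000479), and the mt changes 2.56 ± 0.54 (edgeR adjusted p = 0.00721) and 2.58 ± 0.54 (edgeR adjusted p = 0.0064). The mt changes were called but moved to 3.89 and 3.91 without mt vehicle replicate 1 and to 1.88 and 1.89 without mt vehicle replicate 2, and were 3.56 and 3.87 without all mt replicate 1 libraries. Mmp15 was one of 2 members called between the lines in vehicle, at 2.86 ± 0.55 higher in mt (edgeR adjusted p = 0.0158). As a ratio, the mt vehicle libraries differed from each other by more than those of any other group, and without mt vehicle replicate 1 the difference was 1.52 and not called; it was 3.22 and 2.55, also not called, without wt vehicle replicate 1 or 2.

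Mmp17, or MT4-MMP, which is held in the membrane by a glycolipid anchor, went the other way and was the member that fell with the smallest p in all 4 comparisons. It lies on chromosome 5 from 130090088 to 130114086. Its level was 91.1 and 101 CPM in wt vehicle, 11.02 and 9.58 with TGFB1 and 7.53 and 7.46 with TGFB2. In mt it was 89.7 and 95.8 CPM in vehicle, 15.4 and 8.25 with TGFB1 and 10.8 and 11.1 with TGFB2. The 8 TGF-beta libraries and the 8 vehicle and BMP2 libraries of the 2 lines thus fell into separate ranges, since BMP2 left it at 70.5 and 81.1 CPM in wt and 72.8 and 56.8 CPM in mt. The changes were -3.22 ± 0.28 and -3.68 ± 0.29 in wt and -2.98 ± 0.28 and -3.08 ± 0.28 in mt, with edgeR adjusted p between 2.18e-05 and 5.95e-05.

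The remaining membrane-type enzymes moved in fewer comparisons. Mmp16, or MT3-MMP, read 19.4 and 19.0 CPM in wt vehicle and 45.0 and 36.8 with TGFB2, a rise of 1.09 ± 0.30 (edgeR adjusted p = 0.024), while with TGFB1 at 32 and 38.9 CPM it missed the threshold (0.88 ± 0.30, adjusted p = 0.0609; 0.0197 with the replicate term). In mt its changes were 0.10 ± 0.30 and 0.15 ± 0.30. The files hold a second entry over the same locus, so its count may be shared. Mmp24, or MT5-MMP, read 8.43 to 22.1 CPM over the 16 libraries and was called in no comparison without the replicate term; with it the mt changes of 0.52 ± 0.21 and 0.55 ± 0.21 passed (adjusted p = 0.046 and 0.0344). This gene overlaps BC029722 on the opposite strand, and the sources used here do not say whether counting used strand. Mmp25, or MT6-MMP, had 1 read in both mt vehicle libraries together and 27 with TGFB1, a ratio of 20.3 after scaling with a 95% counting interval of 3.34 to 829; it was called there (edgeR adjusted p = 0.0382) but not with TGFB2, where it had 18 reads (adjusted p = 0.077; 0.0291 with the replicate term). Leaving out any 1 of the 4 libraries ended the TGFB1 call.

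**Figure D3:**
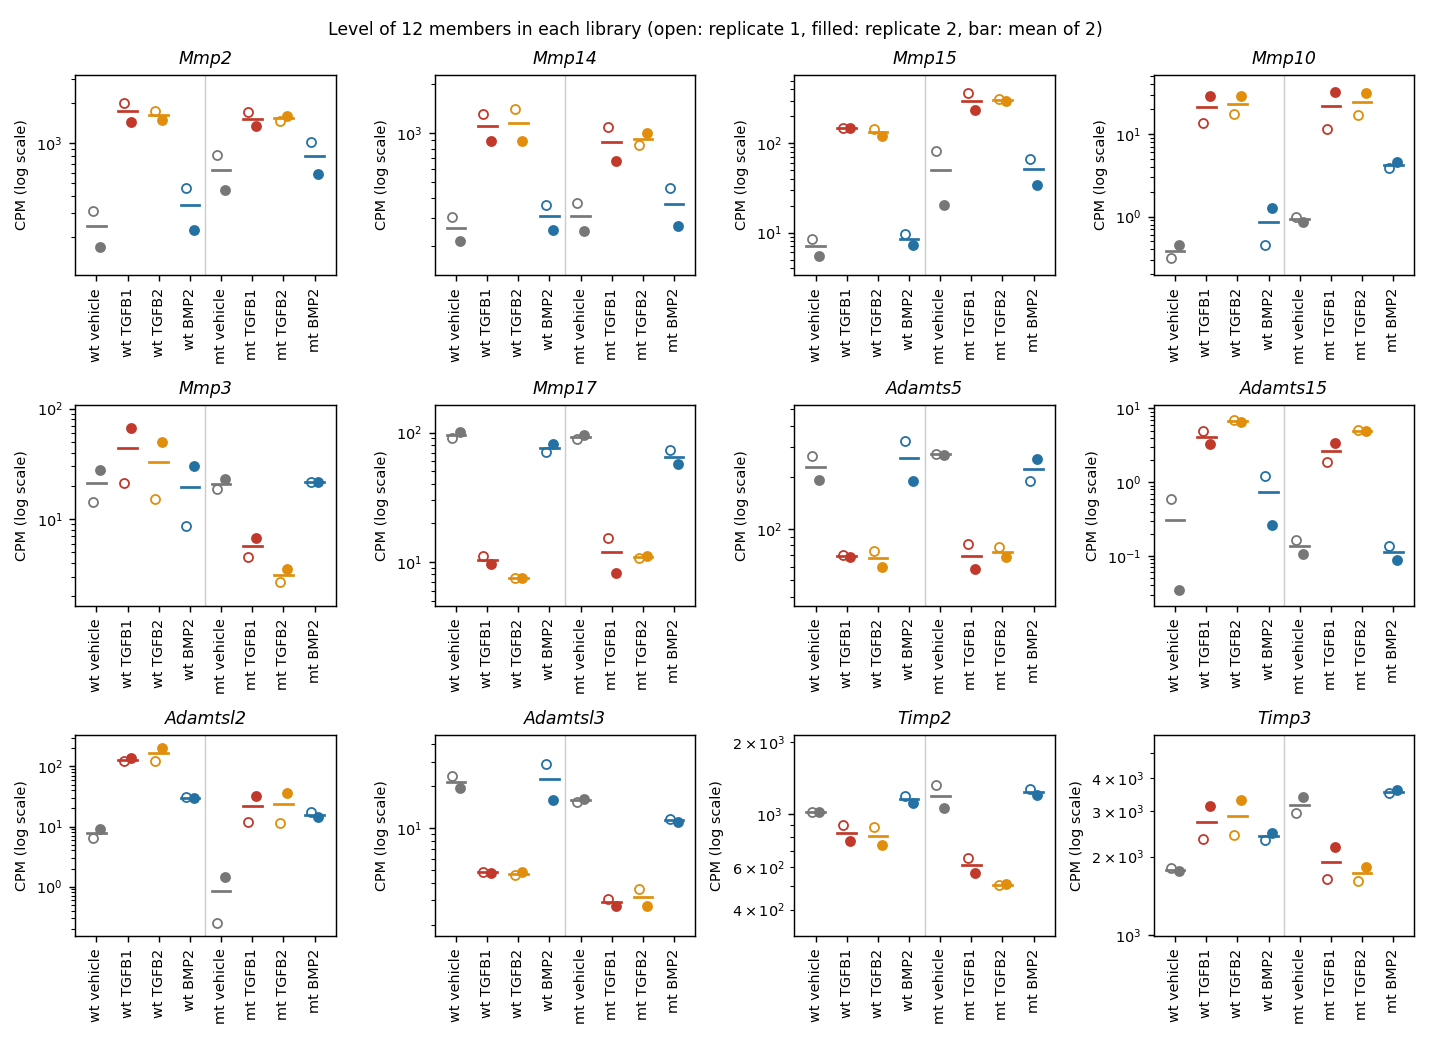
CPM on a log axis of 12 members in each library (open circle replicate 1, filled circle replicate 2, bar the mean of 2), by line and treatment. Mmp14, Mmp15, Mmp10 and Adamts15 lie higher in every TGFB1 and TGFB2 library than in the vehicle libraries of the same line, and Mmp17, Adamts5 and Adamtsl3 lie lower.

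Mmp2, or gelatinase A, which degrades denatured collagen and basement membrane collagen, was per kilobase the most abundant Mmp transcript in all 4 TGF-beta groups. It lies on chromosome 8 from 95351226 to 95377319 and read 312 and 167 CPM in wt vehicle, 2008 and 1447 with TGFB1 and 1750 and 1489 with TGFB2. Those groups were far apart, with changes of 2.85 ± 0.47 (edgeR adjusted p = 0.00143) and 2.76 ± 0.47 (edgeR adjusted p = 0.00152). The mt line had 822 and 448 CPM in vehicle, 1707 and 1352 with TGFB1 and 1460 and 1609 with TGFB2; the groups did not overlap, but the changes of 1.27 ± 0.44 with each ligand missed the threshold (edgeR adjusted p = 0.0734 and 0.070). With the replicate term both passed (adjusted p = 0.00172 and 0.00126). The mt level in vehicle was above that of wt in both libraries, by 1.41 ± 0.45 (edgeR adjusted p = 0.128; 0.00365 with the replicate term).

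Mmp9, or gelatinase B, the second gelatinase and better known from leukocytes, was rare in these cells. It had 4 reads in wt vehicle, 29 with TGFB1 and 34 with TGFB2, and rose by 2.93 ± 0.73 (edgeR adjusted p = 0.0165) and 3.44 ± 0.72 (edgeR adjusted p = 0.00637). The TGFB1 call was lost without wt TGFB1 replicate 1 (2.34), wt vehicle replicate 1 (2.53) or wt vehicle replicate 2 (3.63), and the TGFB2 call without wt TGFB2 replicate 1 (2.90) or wt vehicle replicate 1 (3.04); without wt vehicle replicate 2 the TGFB2 change was 4.14. No read was found in either mt vehicle library, and 39 and 30 reads were found with TGFB1 and TGFB2. With the mt vehicle group set to 3 reads, TGFB1 left Mmp9 at least 9.75-fold higher, and for TGFB2 the bound was at least 7.46-fold; both were called (edgeR adjusted p = 0.00279 and 0.00398), and neither was without the mt replicate 1 libraries (adjusted p = 0.0525 and 0.0757), where 0 reads in vehicle stood against 24 and 17. The leukocyte genes Ptprc, Emr1, Lyz2, S100a8 and S100a9 stayed at or below 0.22 CPM in every library. Itgam read 0.584 and 0.798 CPM in wt vehicle and 1.11 to 1.64 CPM in the wt TGF-beta libraries. In mt Itgam read 0.745 and 1.02 CPM in vehicle and 2.60 to 2.75 CPM in the TGF-beta libraries. Csf1r read 2.40 and 1.94 CPM in mt vehicle and 0.953 to 1.22 CPM in the mt TGF-beta libraries, and in wt these groups overlapped. The summed level of all 9 leukocyte markers was 13.3 to 25.7 CPM in vehicle, 19.3 to 36.7 CPM with BMP2 and 32.2 to 50.4 CPM with a TGF-beta ligand, carried by Cd68 and Cd14; its part in the Mmp9 result was not tested.

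The stromelysins and collagenases of the chromosome 9 block did not move as one. Mmp10, or stromelysin-2, which cleaves proteoglycans and activates other Mmp zymogens, read 0.315 and 0.451 CPM in wt vehicle, 13.6 and 28.6 with TGFB1 and 17.4 and 28.8 with TGFB2. The mt line had 0.993 and 0.861 CPM in vehicle, 11.7 and 32.5 with TGFB1 and 17.0 and 31.6 with TGFB2. The vehicle and TGF-beta libraries were an order of magnitude apart in both lines, and replicate 2 was the higher one in each TGF-beta group. The changes were 5.74 ± 0.67 (edgeR adjusted p = 0.000233) and 5.88 ± 0.67 (0.000181) in wt and 4.58 ± 0.63 (0.000618) and 4.72 ± 0.64 (0.00049) in mt; in mt Mmp10 stayed called without the replicate 1 libraries, at 5.23 and 5.19 (adjusted p = 0.00645 and 0.00633). Leaving out replicate 2 of TGFB1 moved the TGFB1 change to 5.10 in wt and 3.62 in mt, and leaving out replicate 1 to 6.13 and 5.13, each called.

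Mmp3, or stromelysin-1, a neighbour with a closely related product, behaved otherwise. It read 14.3 and 28.0 CPM in wt vehicle, 21.4 and 66.8 with TGFB1 and 15.3 and 50.1 with TGFB2. These groups overlapped, and the changes of 1.06 ± 0.66 and 0.63 ± 0.65 were not called (edgeR adjusted p = 0.321 and 0.589). The mt line had 18.5 and 22.9 CPM in vehicle, 4.55 and 6.75 with TGFB1 and 2.68 and 3.53 with TGFB2, so that every TGF-beta library stood below both vehicle libraries. The fall was called with TGFB2, at -2.72 ± 0.72 (edgeR adjusted p = 0.0215; -2.69, adjusted p = 0.205, without the mt replicate 1 libraries), and not with TGFB1, at -1.86 ± 0.69 (edgeR adjusted p = 0.0894; 0.00287 with the replicate term). The difference between the lines was -2.92 ± 0.95 for TGFB1 and -3.35 ± 0.97 for TGFB2, which was not called without the replicate term (edgeR adjusted p = 0.475 and 0.397) and was called with it (0.0284 and 0.0148).

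The other tested neighbours were near the detection limit. Mmp13, or collagenase-3, had 4 reads in wt vehicle and 39 with TGFB1, a rise of 3.18 ± 0.90 (edgeR adjusted p = 0.0281), and 19 with TGFB2 (2.50 ± 0.95, adjusted p = 0.0876; 0.0466 with the replicate term); leaving out any 1 of the 4 libraries ended the TGFB1 call, at 2.78 to 3.87. Mmp8, the neutrophil collagenase, read 0.180 and 0.347 CPM in wt vehicle, 0.943 and 1.73 with TGFB1 and 0.911 and 1.19 with TGFB2, and rose by 2.31 ± 0.60 (edgeR adjusted p = 0.0177) and 1.95 ± 0.61 (edgeR adjusted p = 0.0404). With 1 library left out its wt TGFB1 change was 1.78 to 2.86, and this call was not among those that held throughout. In mt neither Mmp13 nor Mmp8 was called.

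**Figure D4:**
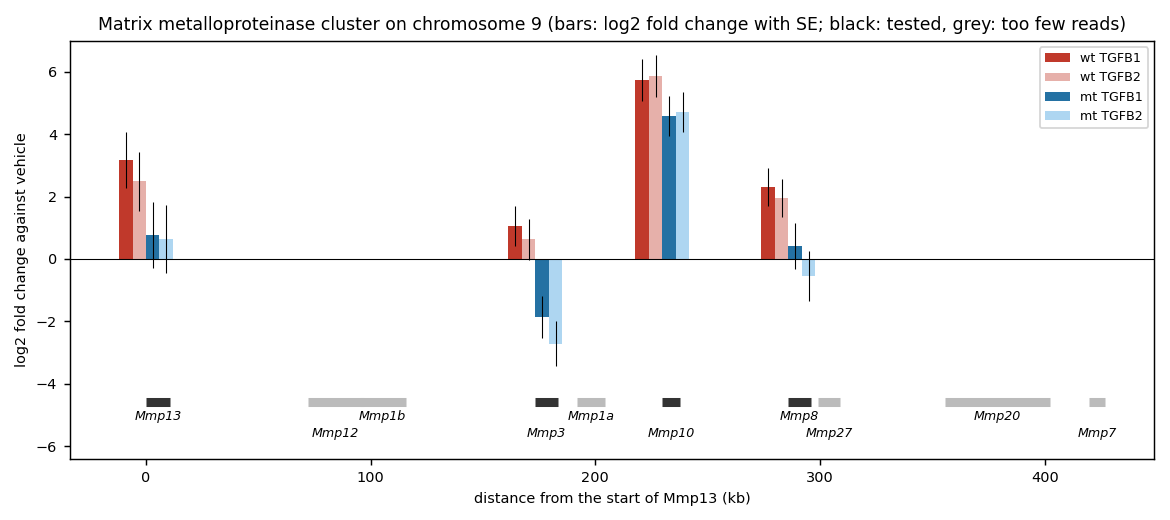
Log2 fold change against vehicle with SE (bars) of the 4 tested genes of the chromosome 9 block, by line and ligand, placed at their distance in kb from the start of Mmp13; blocks at the foot mark gene extents, grey for genes with too few reads to test. Mmp10 is near 5 in all 4 bars, while Mmp3, less than 60 kb away, lies above 0 in wt and below 0 in mt.

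Of the remaining Mmp genes, Mmp28, or epilysin, read 0.405 and 0.590 CPM in wt vehicle, 2.42 and 1.94 with TGFB1 and 1.64 and 1.68 with TGFB2. It rose by 2.10 ± 0.47 (edgeR adjusted p = 0.00886) and 1.71 ± 0.48 (edgeR adjusted p = 0.025). In mt vehicle it stood at 2.40 and 1.08 CPM, overlapping the wt TGF-beta range, and its changes of 0.69 ± 0.45 and 0.78 ± 0.44 were not called. Mmp11, or stromelysin-3, read 33.9 and 24.5 CPM in mt vehicle, 66.5 and 61.2 with TGFB1 and 56.5 and 55.6 with TGFB2, and rose by 1.13 ± 0.26 (edgeR adjusted p = 0.0109) and 0.94 ± 0.26 (edgeR adjusted p = 0.0252). Without the mt replicate 1 libraries Mmp11 changed by 1.32 and 1.18. Its mt calls were not among those that held whichever of the 4 libraries was left out. In wt it went from 42.1 and 26.8 CPM to 53.9 and 53.8 with TGFB1, which was not called at 0.64 ± 0.25 (adjusted p = 0.105; 0.00886 with the replicate term), nor was TGFB2 at 0.60 ± 0.25 (adjusted p = 0.127; 0.0141 with the replicate term). Mmp19, a protease of basement membrane proteins, read 14.4 and 28.1 CPM in mt vehicle and 5.59 to 7.41 CPM in the 4 mt TGF-beta libraries. It fell by 1.67 ± 0.43 and 1.74 ± 0.43 on the log2 scale (edgeR adjusted p = 0.0202 and 0.0157), and in wt its changes of -0.72 ± 0.41 and -0.79 ± 0.41 passed only with the replicate term (adjusted p = 0.0298 and 0.0188). Without the mt replicate 1 libraries Mmp19 changed by -1.93 and -1.99 in mt, and its mt calls also did not hold throughout. It overlaps 1110012D08Rik on the opposite strand, with the same limit on telling the reads apart. Mmp23 read 82.1 to 323 CPM, with replicate 2 the higher in all 8 groups, and was called only with the replicate term, in mt with TGFB2 (-0.84 ± 0.53, adjusted p = 0.041).

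The ADAMTS enzymes split into a small set that rose and a larger set that fell or did not pass. Among the hyalectanases, which cut versican and aggrecan, Adamts15 rose the most. It read 0.584 and 0.0347 CPM in wt vehicle, 5.01 and 3.33 with TGFB1 and 6.92 and 6.54 with TGFB2, and in mt 0.166 and 0.108, 1.91 and 3.37, and 5.05 and 4.92 CPM. Vehicle and TGF-beta libraries did not overlap in either line, and the changes were 3.81 ± 0.77 (edgeR adjusted p = 0.00477) and 4.50 ± 0.78 (0.00172) in wt and 4.28 ± 0.93 (0.00827) and 5.18 ± 0.91 (0.00242) in mt. The wt vehicle libraries held 13 reads and 1 read, and without replicate 1 of them the wt changes were 6.65 and 7.35, without replicate 2 they were 2.81 and 3.51, each called. Its mt vehicle group held only 4 reads. Adamts4, another hyalectanase, read 4.76 and 4.13 CPM in wt vehicle and 9.40 to 10.9 CPM in the wt TGF-beta libraries, and rose by 1.17 ± 0.37 (edgeR adjusted p = 0.0431) and 1.25 ± 0.37 (edgeR adjusted p = 0.0311). With 1 library left out its wt TGFB1 change was 1.03 to 1.27, and this call was not among those that held throughout. In mt its changes were 0.70 ± 0.37 and 0.92 ± 0.37 (adjusted p = 0.243 and 0.117; 0.0458 and 0.0113 with the replicate term).

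Adamts5, per kilobase the most abundant hyalectanase in vehicle, fell. It lies on chromosome 16 from 85858401 to 85901370 and read 266 and 192 CPM in wt vehicle, 69.9 and 68.6 with TGFB1 and 74.4 and 60.1 with TGFB2; in mt it read 275 and 270, 81.2 and 57.9, and 78.7 and 68.5 CPM. The TGF-beta libraries of both lines lay together and apart from all vehicle and BMP2 libraries. The changes were -1.72 ± 0.30 and -1.77 ± 0.30 in wt and -1.97 ± 0.30 and -1.89 ± 0.30 in mt (edgeR adjusted p between 0.00109 and 0.0019), and in mt both stayed called without the replicate 1 libraries. Adamts1, its neighbour on chromosome 16 and also a versican-cleaving enzyme, read 65.7 and 65.7 CPM in wt vehicle, 35.5 and 45.9 with TGFB1 and 29.0 and 47.6 with TGFB2, which was not called (-0.69 ± 0.30 and -0.78 ± 0.31; adjusted p = 0.0427 for TGFB2 with the replicate term). In mt it read 87.0 and 47.5, 22.3 and 16.4, and 19.7 and 18.5 CPM and fell by 1.80 ± 0.31 and 1.81 ± 0.31 on the log2 scale (edgeR adjusted p = 0.00251 and 0.00222). Adamts9 and Adamts20, relatives known for versican cleavage in development, fell in mt with both ligands. Adamts9 read 156 and 81.7 CPM in mt vehicle and 38.5 to 55.9 CPM in the mt TGF-beta libraries (-1.33 ± 0.35 and -1.47 ± 0.35, edgeR adjusted p = 0.0221 and 0.0131), and it overlaps AK043032 on the opposite strand, so that reads of the pair cannot be told apart if counting ignored strand. Adamts20 read 14.6 and 6.73 CPM in mt vehicle and 2.22 to 2.46 CPM in those libraries (-2.17 ± 0.45 with each ligand, edgeR adjusted p = 0.00699 and 0.0064). Without mt vehicle replicate 1 the Adamts20 changes were -1.52 with each ligand and still called, and the call was lost without mt TGFB1 replicate 2 (-2.24) or without either mt TGFB2 library (-2.10 and -2.26). Without the mt replicate 1 libraries neither was called, at -1.09 and -1.08 for Adamts9 and -1.48 and -1.45 for Adamts20, and for both genes the mt vehicle libraries differed from each other, as a ratio, by more than those of any other group. Adamts8, a further enzyme of this group with at most 1.76 CPM, stood at 1.46 ± 1.01 and 1.55 ± 1.02 in wt and 2.55 ± 1.04 and 2.18 ± 1.05 in mt, where both passed with the replicate term alone (adjusted p = 0.0128 and 0.027).

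The procollagen N-proteinases, which trim the amino end of fibrillar collagens, were Adamts2, Adamts3 and Adamts14. Adamts3 read 7.53 and 7.05 CPM in mt vehicle, 2.06 and 1.14 with TGFB1 and 2.22 and 1.60 with TGFB2, and fell by 2.22 ± 0.44 and 1.95 ± 0.43 on the log2 scale (edgeR adjusted p = 0.00524 and 0.00897). Adamts14 read 7.03 and 5.22 CPM in mt vehicle, 2.28 and 1.65 with TGFB1 and 1.38 and 1.68 with TGFB2, and fell by 1.65 ± 0.29 and 1.98 ± 0.29 (edgeR adjusted p = 0.0024 and 0.000778). In wt, Adamts14 lay between 4.67 and 6.11 CPM in vehicle and TGF-beta libraries alike, with changes of -0.01 ± 0.27 and -0.25 ± 0.27. The line difference of Adamts14 had the smallest p among the members, at -1.64 ± 0.39 for TGFB1 and -1.73 ± 0.39 for TGFB2. It was not called by edgeR (adjusted p = 0.245 and 0.189, and 0.0566 and 0.0518 with the replicate term) and was called by DESeq2 (adjusted p = 0.0332 and 0.0284). Adamts2, per kilobase the most abundant of the 3, read 61.1 and 38.8 CPM in wt vehicle and 24.2 to 31.1 CPM in the wt TGF-beta libraries, and was called in no comparison without the replicate term, at -0.77 ± 0.40 and -0.995 ± 0.41 in wt and -0.83 ± 0.40 and -0.93 ± 0.41 in mt. With the replicate term both TGFB2 changes of Adamts2 passed (adjusted p = 0.0234 in wt and 0.0361 in mt).

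Of the other ADAMTS enzymes, Adamts16, which is known for roles in kidney and gonad development, rose in all 4 comparisons. It read 0.450 and 0.520 CPM in wt vehicle, 2.83 and 2.13 with TGFB1 and 3.52 and 3.18 with TGFB2, and 0.166 and 0.700, 2.79 and 2.71, and 3.75 and 3.39 CPM in mt. The groups were apart in both lines, with changes of 2.32 ± 0.50 and 2.77 ± 0.50 in wt (edgeR adjusted p = 0.00697 and 0.0024) and 2.55 ± 0.53 and 2.92 ± 0.53 in mt (edgeR adjusted p = 0.00699 and 0.00291). The mt changes were 1.96 and 2.33 without mt vehicle replicate 1 and 4.00 and 4.37 without mt vehicle replicate 2, each called; without all mt replicate 1 libraries they were 1.95 and 2.27 and not called. A second entry covers the same locus as Adamts16, so its count may be shared. Adamts10, which binds fibrillin microfibrils, read 90.3 and 65.3 CPM in wt vehicle and 124 to 176 CPM in the wt TGF-beta libraries, a rise of 0.94 ± 0.26 with each ligand (edgeR adjusted p = 0.0247 and 0.0233); in mt the changes were 0.68 ± 0.26 and 0.59 ± 0.26 (adjusted p = 0.0996 and 0.146; 0.0124 and 0.0231 with the replicate term). The enzymes Adamts6, Adamts7, Adamts12, Adamts17 and Adamts18 were called nowhere, except that Adamts12 in mt with TGFB2 (1.19 ± 0.39, edgeR adjusted p = 0.0563) passed with the replicate term (0.0228). Adamts7 and Adamts12, which cleave cartilage oligomeric matrix protein, read 35.4 to 79.3 and 13.5 to 48.0 CPM, Adamts6 1.08 to 3.01 CPM, and Adamts17 and Adamts18 at most 0.612 and 0.733 CPM.

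The catalytically inactive relatives gave both a steep rise and a steep fall. Adamtsl2, which binds fibrillin and the latent TGF-beta binding protein LTBP1, lies on chromosome 2 from 26934900 to 26964133. The wt libraries held 6.38 and 9.23 CPM after vehicle, 121 and 138 after TGFB1, 125 and 206 after TGFB2, then 30.7 and 29.6 after BMP2. The mt libraries held 0.248 and 1.45 CPM after vehicle, 11.8 and 32.9 after TGFB1, 11.6 and 36.0 after TGFB2, then 17.4 and 14.3 after BMP2. Each ligand group stood above the vehicle group of its line, and the mt vehicle libraries were the lowest of all 16. TGFB1 and TGFB2 raised it by 4.05 ± 0.65 (edgeR adjusted p = 0.0013) and 4.40 ± 0.67 (0.000801) in wt and by 4.60 ± 0.74 (0.00151) and 4.69 ± 0.74 (0.00123) in mt. The mt vehicle libraries held 3 and 27 reads: without replicate 1 of them the mt changes were 3.94 and 4.04, without replicate 2 they were 6.47 and 6.56, and without replicate 2 of the ligand 3.62 and 3.65, each called. It was the second member called between the lines in vehicle, at -3.08 ± 0.72 in mt (edgeR adjusted p = 0.0372), and this call was lost without mt vehicle replicate 1, at -2.43, and without wt vehicle replicate 1 or 2, at -3.32 and -2.79.

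Adamtsl3 fell in all 4 comparisons. It read 23.5 and 19.2 CPM in wt vehicle, 4.83 and 4.74 with TGFB1 and 4.55 and 4.77 with TGFB2, and 15.5 and 16.1, 3.08 and 2.71, and 3.60 and 2.71 CPM in mt. Replicates lay close together and the groups did not overlap; the changes were -2.16 ± 0.28 and -2.19 ± 0.28 in wt and -2.45 ± 0.29 and -2.33 ± 0.29 in mt (edgeR adjusted p between 0.000248 and 0.000384). Adamtsl4, which binds fibrillin-1 and is known from the lens zonule, read 26.1 and 21.8 CPM in wt vehicle, 12.6 and 14.1 with TGFB1 and 8.38 and 11.1 with TGFB2. The fall was called with TGFB2 (-1.29 ± 0.30, edgeR adjusted p = 0.00913) and not with TGFB1 (-0.84 ± 0.29, adjusted p = 0.0647; 0.0212 with the replicate term). In mt it read 49.97 and 35.6 CPM in vehicle and 7.35 to 9.40 CPM with a TGF-beta ligand, and fell by 2.21 ± 0.30 and 2.38 ± 0.31 on the log2 scale (edgeR adjusted p = 0.000599 and 0.000383). Adamtsl5 read 39.1 and 30.5 CPM in wt vehicle and 15.2 to 20.5 CPM in the wt TGF-beta libraries (-0.88 ± 0.28 and -0.97 ± 0.28, edgeR adjusted p = 0.0433 and 0.0283), and in mt was called with TGFB2 alone (-0.91 ± 0.28, adjusted p = 0.0424; TGFB1 -0.77 ± 0.28, adjusted p = 0.0801, and 0.00174 with the replicate term). With 1 library left out its wt TGFB1 change was -1.06 to -0.70, and this call was not among those that held throughout. Adamtsl1, or punctin, was called nowhere and read 19.6 to 46.8 CPM.

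None of the 3 tested inhibitors was called in wt, and Timp2 and Timp3 fell in mt. Timp2, which blocks Mmp2 and also takes part in its activation by Mmp14, read 1018 and 1018 CPM in wt vehicle, 901 and 772 with TGFB1 and 883 and 746 with TGFB2, which was not called (-0.28 ± 0.22 and -0.32 ± 0.22). In mt it read 1320 and 1061 CPM in vehicle, 658 and 566 with TGFB1 and 505 and 512 with TGFB2, so that every TGF-beta library stood below both vehicle libraries. Timp2 fell in mt by 0.96 ± 0.22 and 1.23 ± 0.22 on the log2 scale (edgeR adjusted p = 0.0112 and 0.00272; without the mt replicate 1 libraries -0.91 and -1.05, adjusted p = 0.144 and 0.0933).

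Timp3, the inhibitor that stays bound to the matrix and also blocks ADAMTS enzymes, read 1802 and 1759 CPM in wt vehicle, 2337 and 3116 with TGFB1 and 2423 and 3295 with TGFB2. In mt it read 2931 and 3380 CPM in vehicle, 1635 and 2184 with TGFB1 and 1615 and 1832 with TGFB2. The wt TGF-beta libraries were all above the wt vehicle libraries and the mt TGF-beta libraries all below the mt vehicle libraries. The wt changes were 0.62 ± 0.26 and 0.68 ± 0.26 (edgeR adjusted p = 0.135 and 0.0935; 0.0298 and 0.0169 with the replicate term), and the mt changes -0.72 ± 0.26 and -0.87 ± 0.27, of which TGFB2 was called (adjusted p = 0.0855 and 0.0401; 0.0112 for TGFB1 with the replicate term) and lost its call, at -0.77 to -0.98, on leaving out any 1 library. The line difference was -1.34 ± 0.37 for TGFB1 and -1.56 ± 0.37 for TGFB2 (edgeR adjusted p = 0.363 and 0.225; 0.0395 and 0.0174 with the replicate term). Timp3 lies inside Syn3 on the opposite strand, and Timp1 inside Syn1, so reads of these pairs cannot be told apart if counting ignored strand. Timp1, a broad inhibitor of secreted Mmp enzymes, was called nowhere; it read 145 to 737 CPM, with replicate 2 the higher in all 8 groups.

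A direct test of the line difference called no member without the replicate term. Over all genes 0.0119% were called for TGFB1 and 0.0475% for TGFB2. At an unadjusted p under 0.05 there were 14 members for TGFB1 and 11 for TGFB2, beside 1041 and 951 of all 16835 genes. DESeq2 called 2 and 3 members, Adamts14 and Timp3 with each ligand and Mmp3 with TGFB2, where 0.709% and 0.701% of all genes were called. The test with the replicate term called Mmp3 and Timp3 for each ligand, where 0.820% and 0.849% of all genes were called. For 2 of 41 members with TGFB1 and 4 with TGFB2 the 95% interval of the difference stayed within 2-fold, and for the others it did not. A call in one line and none in the other, as for Adamts10 or Mmp28, is therefore not in itself a difference between the lines.

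**Figure D5:**
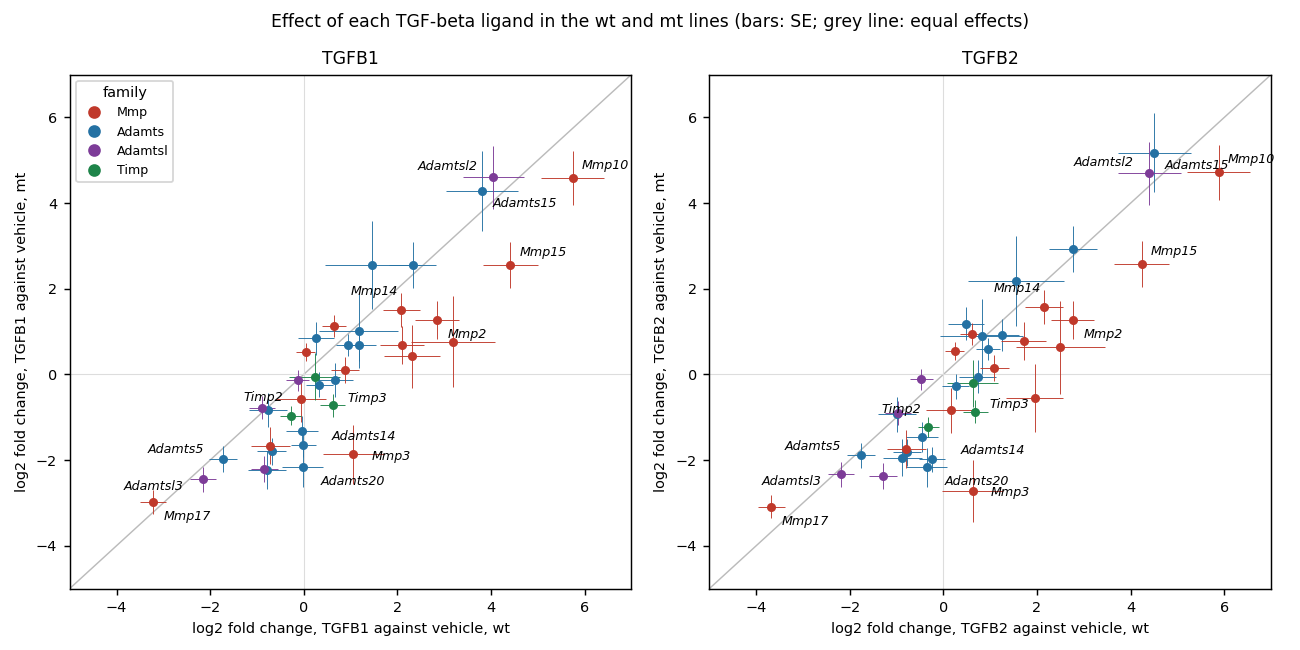
Log2 fold change in mt (vertical) against that in wt (horizontal) for TGFB1 (left) and TGFB2 (right), with SE bars, coloured by family; Adamts18, Mmp9 and Mmp25, with 3 reads or fewer in a vehicle group, are left out. Mmp3 and Timp3 lie right of 0 and below 0, and Mmp17, Adamts5 and Adamtsl3 lie on both negative sides.

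In vehicle alone, 2 of 41 members were called between mt and wt, Mmp15 and Adamtsl2, where 3.58% of all genes were called (2.45% higher and 1.13% lower). The median member differed by 0.13, beside 0.021 over all genes. With the replicate term 6 were called (10.3% of all genes), adding Mmp2, Mmp28, Timp3 and Adamts20, all higher in mt. The count was 0 without mt vehicle replicate 1, without wt vehicle replicate 1 or without wt vehicle replicate 2, and 3 without mt vehicle replicate 2.

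TGFB1 and TGFB2, given at the same dose and time, were not distinguished by any member. In the direct comparison 0 of 41 were called in wt and 0 in mt, at an unadjusted p under 0.05 as well as after adjustment, and with DESeq2. Over all genes 0% were called, and 55 in wt and 64 in mt of 16835 had an unadjusted p under 0.05. The smallest p belonged to Mmp17 in wt, at -0.46 ± 0.26 for TGFB2 against TGFB1 with a 95% interval of -1.03 to 0.12, and to Adamts15 in mt, at 0.89 ± 0.64 with an interval of -0.50 to 2.28. The interval stayed within 2-fold for 18 members in wt and 21 in mt, and within 4-fold for 35 and 34.

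BMP2, a ligand of the same superfamily given at another dose, called no member in either line by edgeR's test. In wt 3 members and in mt 5 had an unadjusted p under 0.05, beside 867 and 563 of all 16835 genes. DESeq2 called 0 and 1 members, where 0.0861% and 0.225% of all genes were called. By edgeR's test 0% of all genes were called in wt and 0.0416% in mt (0.0297% higher and 0.0119% lower). The median member moved by 0.18 in wt and -0.01 in mt. Adamtsl2 had the smallest p in both lines: it stood at 1.95 ± 0.61 in wt (edgeR adjusted p = 0.915) and at 4.09 ± 0.73 in mt (adjusted p = 0.104; 0.00546 with the replicate term), with both BMP2 libraries above both vehicle libraries in each line. Mmp10 in mt read 3.89 and 4.57 CPM with BMP2 against 0.993 and 0.861 CPM in vehicle, at 2.21 ± 0.63 (edgeR adjusted p = 0.755; 0.0262 with the replicate term), and these were the 2 members called under that term, where 0.232% of all genes were called. For 15 members in wt and 12 in mt the 95% interval of the BMP2 effect stayed within 2-fold. No member was called in the line difference of the BMP2 effect, where 0% of all genes were called by edgeR's test. At an unadjusted p under 0.05 there were 2 members beside 543 of 16835 genes, and DESeq2 called 0 members.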

How the data were processed

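RNA of 16 libraries (8 groups of 2) was read from a pair of deposited tables, 1 per replicate number. The authors deposited raw read counts per gene and rpm, that is counts scaled to 1000000 reads of the library; rpm matched counts over the column total within 2.9e-11 and was not tested. Alignment was to mm9 by TopHat or TopHat2, per the submitters' processing notes; versions, the counting program and its use of strand are not stated in the sources used here. The unnamed entries of 1 table (2 in number) were left out. Counts were fitted with edgeR 4.0.16 under R 4.3.3 (TMM, filterByExpr, robust quasi-likelihood fit of 8 group means, F test, Benjamini-Hochberg over 16835 genes); 8 residual degrees of freedom were left and the biological coefficient of variation was 0.274. SE is the size of the log2 fold change divided by root F, and 95% intervals use it. Against 0 reads a floor of 3 reads per group gives a lower bound; counting intervals and floors cover counting error only. Levels per kilobase use GENCODE exon lengths. Same-numbered libraries deviated together in 28 of 28 pairs of groups (correlation 0.16 to 0.76), so libraries of a number share a difference. Replicate 2 was also the deeper library in all 8 groups, and whether depth, batch or paired cultures lie behind the shared difference was not tested. The same test with a replicate term (variation 0.17) is given where it changes a call. Alternatives were RLE size factors, no filter, the replicate term, DESeq2 1.42.0, a fit of only the groups compared, leaving out each library and the mt replicate 1 libraries left out. All members are named; those called in a ligand or line comparison with a mean of at least 1 CPM in a group have their libraries given. The tests were tried on simulated data. Membership followed the gene symbol alone, and the lists of related genes were chosen with earlier results of these data known. One gene of the lists is not reported here.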

Additional observations from a re-analysis of the deposited data

Results flagged for a closer look

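The effect of TGF-beta differed between the lines for 3 members under an alternative test of the difference itself, and for none under edgeR's test without the replicate term. Over all genes the test with the replicate term called 0.820% for TGFB1 and 0.849% for TGFB2, and DESeq2 called 0.709% and 0.701%. Values are the mt effect minus the wt effect on the log2 scale. For Mmp3 the difference was -2.90 with TGFB1 and -3.34 with TGFB2 with the replicate term (edgeR adjusted p = 0.0284 and 0.0148), and -3.34 with TGFB2 in DESeq2 (adjusted p = 0.048). For Timp3 it was -1.33 and -1.54 with the replicate term (edgeR adjusted p = 0.0395 and 0.0174), and -1.32 and -1.53 in DESeq2 (adjusted p = 0.0105 and 0.00138). For Adamts14 it was -1.63 and -1.69 in DESeq2 (adjusted p = 0.0332 and 0.0284). Each of these members was lower in the mt TGF-beta libraries than in both mt vehicle libraries.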

How the results depend on the processing

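Of 79 calls of single members, 79 kept their call and direction with RLE size factors, 79 with the replicate block, 77 with DESeq2 and 75 without the low-count filter; no call reversed under any alternative run. With only the compared groups in the fit, 52 of 77 calls held, and of 316 calls with 1 library left out 216 held. Without the mt replicate 1 libraries 20 of 44 held. The replicate block moved the counts of called members from 0 to 2 for mt BMP2, from 2 to 6 for mt against wt in vehicle, and from 0 to 2 for the line difference of TGFB1 and of TGFB2. DESeq2 gave 1, 5, 2 and 3 for these, where it called 0.225%, 5.78%, 0.709% and 0.701% of all genes. With the compared groups alone, 5 members were called for mt TGFB1, 14 for mt TGFB2 and 0 for mt against wt in vehicle; without the filter 1 was called for the last. Without the mt replicate 1 libraries there were 10, 10 and 0. With 1 library left out, the counts ran from 9 to 13 for wt TGFB1, 10 to 13 for wt TGFB2, 13 to 18 for mt TGFB1, 13 to 21 for mt TGFB2 and 0 to 3 for mt against wt in vehicle, and stayed at 0 elsewhere; a lone library is then assumed to vary like the other groups. These fits have fewer libraries by construction, with 1 per mt group in the fit without the mt replicate 1 libraries, and the cause of the other shifts was not tested. With 2 libraries per group, members under 1 CPM rest on few reads.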

Other observations

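Genes that act on or beside these proteases were described from 5 lists, each described by its counts; with TGFB1 10.8% of all genes were called higher and 8.21% lower in wt, and 7.97% and 8.45% in mt. Of 15 tested regulators and activators, 4 rose and 2 fell in wt with TGFB1 and 3 rose and 2 fell in mt. Cd44, a hyaluronan receptor that docks proteases on the cell surface, rose by 2.37 ± 0.31 in wt and 1.42 ± 0.30 in mt. Serpine2 rose by 3.98 ± 0.55 in wt and 1.65 ± 0.50 in mt (edgeR adjusted p = 0.000521 and 0.0411). Plat, a plasminogen activator, was at -0.96 ± 0.27 and -1.55 ± 0.27 (edgeR adjusted p = 0.0253 and 0.00245). Of 10 tested ADAM proteases, Adam19 rose in both lines (1.76 ± 0.34 and 1.65 ± 0.34) and Adam33 fell in both (-2.77 ± 0.44 and -2.42 ± 0.46), while Adam12 rose in wt (1.19 ± 0.26).

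Of 9 tested substrates, 1 rose and 3 fell in wt with TGFB1, the first near the share over all genes, and 2 rose and 3 fell in mt. Vcan, or versican, a proteoglycan cut by the hyalectanases, rose by 4.38 ± 0.75 in wt and 3.40 ± 0.70 in mt (edgeR adjusted p = 0.00181 and 0.00635). Acan, or aggrecan, another such proteoglycan, rose in mt by 4.53 ± 1.05 (edgeR adjusted p = 0.0156). In wt Acan was not called (4.06 ± 1.89, edgeR adjusted p = 0.181). Eln, Fbn2 and Dcn, for elastin, fibrillin-2 and decorin, fell in both lines, Eln by 3.35 ± 0.53 in wt and 2.83 ± 0.53 in mt. Of 7 tested collagen-processing genes, 3 rose and 1 fell in wt with TGFB1, and 2 rose and 1 fell in mt. Pcolce2 rose and Pcolce fell in both lines, although both encode enhancers of procollagen C-proteinase. Pcolce2 changed by 3.18 ± 0.32 and 2.34 ± 0.27, and Pcolce by -0.99 ± 0.22 and -1.46 ± 0.22. Bmp1 and Ctsk rose in wt, by 2.29 ± 0.54 and 1.32 ± 0.41 (edgeR adjusted p = 0.011 and 0.0432), and were not called in mt (1.61 ± 0.53 and 0.76 ± 0.42). Tll1 rose in mt by 3.01 ± 0.74 (edgeR adjusted p = 0.0175) and was not called in wt (1.79 ± 0.98). Of 14 tested AP-1, ETS and Runx factors, 5 rose and 2 fell in wt with TGFB1 and 6 rose and 3 fell in mt. Elk3 and Runx1 had the smallest p of this list in both lines. They rose by 1.90 ± 0.18 and 2.65 ± 0.34 in wt and by 1.56 ± 0.18 and 2.52 ± 0.33 in mt. Fosl1, a partner of Jun, rose by 3.09 ± 0.53 and 3.14 ± 0.53, and Fosl2 fell, by 1.11 ± 0.22 and 1.60 ± 0.22 on the log2 scale. The other AP-1 genes Fos, Fosb, Jun, Junb and Jund were not called in wt with TGFB1. Fos was at -0.95 ± 0.33 there (edgeR adjusted p = 0.0654), and with TGFB2 in wt it was called lower, at -1.12 ± 0.33 (edgeR adjusted p = 0.0321). In mt with TGFB1 Fosb and Junb rose, by 1.44 ± 0.43 and 1.25 ± 0.34, and Fos, Jun and Jund were not called.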
